A study of Mus musculus with 10 samples.

Results

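The annexin family was followed through the 10 RNA-sequencing libraries of the study. The 9 genes described, Anxa1 to Anxa8 and Anxa11, were matched by gene symbol among 21695 protein-coding genes of the count tables, and each had a row in every table. The family was selected on the level of Anxa3, which was high in the 5-day TRULI libraries as the deposited names identify them, so the 5-day values are given as a description. Utricular supporting cells, sorted by FACS as Lfng-GFP+ cells from cultured utricles of Lfng-EGFP mice at postnatal day 21, were the source of the RNA. The DMSO_d5 cells (n = 3) had 5 days in 0.1% DMSO, and the TRULI_d5 cells (n = 3) had 5 days in 10 uM TRULI, an inhibitor of the Lats kinases, with the same DMSO. The DMSO_d10 (n = 2) and TRULI_d10 (n = 2) cells had the same 5 days followed by 5 days of recovery with no treatment. A sorted library reports only the cells that still express the reporter, and in these pooled cells a change in the mix of cells and a change in RNA per cell cannot be told apart.

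Annexins are cytosolic proteins that bind acidic phospholipids when calcium rises. A conserved core of annexin repeats docks on the membrane, and a variable amino-terminal tail binds partners, among them S100 proteins. The family is known for membrane repair, vesicle traffic and the linking of membrane to cortical actin. In the utricle, a balance organ of the inner ear, supporting cells surround the hair cells and keep the epithelium sealed.

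The labels and the deposited names disagreed for 4 of the 10 libraries. TRULI_d5 replicates 1 and 2 by label were deposited as DMSO_d10, and DMSO_d10 replicates 1 and 2 by label were deposited as TRULI_d5. TRULI_d5 replicate 3, the 3 DMSO_d5 libraries and both TRULI_d10 libraries carried the same condition in both places. The labels give the groups below unless the deposited name is stated, and the counts of called annexins are given for both groupings. Which grouping gives the true conditions was not tested, and Yap target genes are given for both. Total expected counts ran from 2463872 to 6255149 per library. The mitochondrial rRNA mt-Rnr2 took 13% to 26.4% of all counts in 6 libraries and 1.45% to 2.53% in the 4 libraries deposited as d10. Of the supporting cell markers, all 10 were detected in every library, with summed levels of 4627 to 15789 CPM, the counts scaled to a common library size. Among 8 macrophage and leukocyte markers C1qa, C1qb and Cx3cr1 were at 0 throughout and the sum did not pass 21.4 CPM, and 5 endothelial markers summed to at most 3.49 CPM.

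The start-site windows of the annexin genes are given first, since the results turn on genes that were high in different libraries. RefSeq windows on GRCm38.p6, 250 bases before to 50 after the annotated start, were at hand for 7 members. Anxa3 and Anxa6 were not among them. Searched on both strands were the TEAD motif GGAATG, which is held by 14.7% of 32851 windows, the AP-1 motif TGACTCA, held by 5.2%, and the TATA motif TATAAA, held by 13.6%. Shown are Anxa1, which was high in 2 of the 3 libraries in which Anxa3 was, Anxa2, which was high in other libraries, and S100a11, a partner that was high with Anxa2. Capitals mark the matches on either strand, and the sequences run 5′ to 3′ on the strand of the gene.
Anxa1, chr19:20390622-20390921, minus strand: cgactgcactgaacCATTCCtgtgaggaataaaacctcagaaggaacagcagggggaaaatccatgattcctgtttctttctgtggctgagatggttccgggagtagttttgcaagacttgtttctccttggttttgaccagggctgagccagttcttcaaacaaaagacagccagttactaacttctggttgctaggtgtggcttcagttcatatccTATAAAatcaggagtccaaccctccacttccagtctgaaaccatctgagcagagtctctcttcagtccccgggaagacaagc
Anxa2, chr9:69453433-69453732, plus strand: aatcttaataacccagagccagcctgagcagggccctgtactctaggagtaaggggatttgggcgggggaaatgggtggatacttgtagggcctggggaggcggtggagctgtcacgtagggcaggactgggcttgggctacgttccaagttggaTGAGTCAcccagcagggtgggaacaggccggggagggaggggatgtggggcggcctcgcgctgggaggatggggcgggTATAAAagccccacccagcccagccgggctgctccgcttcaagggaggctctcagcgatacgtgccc
S100a11, chr3:93520246-93520545, plus strand: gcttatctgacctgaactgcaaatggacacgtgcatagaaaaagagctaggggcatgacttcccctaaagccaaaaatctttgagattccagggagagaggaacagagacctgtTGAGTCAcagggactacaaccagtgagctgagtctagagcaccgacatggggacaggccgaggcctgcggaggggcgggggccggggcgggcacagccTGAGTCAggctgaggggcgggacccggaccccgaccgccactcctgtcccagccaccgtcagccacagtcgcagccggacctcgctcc
In Anxa1 the TEAD match began at position -236 from the start and the TATA match at -32. In Anxa2 the AP-1 match began at -95 and the TATA match at -17. S100a11 had AP-1 matches beginning at -136 and at -38. The windows of Anxa4, Anxa5, Anxa7, Anxa8 and Anxa11 held none of these letters, which says nothing about the factors themselves.

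Anxa5 and Anxa2 carried most of the annexin transcript signal. On the length-scaled FPKM scale (counts scaled to library size and transcript length), Anxa5, which binds phosphatidylserine and is abundant in hair bundles, was the highest member in the 6 libraries deposited as d5, where it made up 46.2% to 72.5% of the family's summed FPKM. Anxa2, which joins membranes to actin and forms a complex with S100a10, was the highest member in the 4 libraries deposited as d10, at 72.1% to 85% of the sum. The summed FPKM of the 9 members was 2482 to 4317 in the former and 7583 to 10139 in the latter. Anxa7, a protein of membrane fusion and secretion, ranked 3 or 4 in every library, with 93.2 to 613 FPKM. Anxa3, Anxa4 and Anxa6 had median FPKM of 49.9, 44.2 and 38.3, and Anxa11 had 9.27. Anxa1 reached at most 12.3 FPKM, and Anxa8 gave 1 count in TRULI_d5 replicate 3 and none in the other 9 libraries. A library without a count allows up to 3 counts, or 0.551 to 1.4 CPM by library, and this limit covers counting error only.

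**Figure D1:**
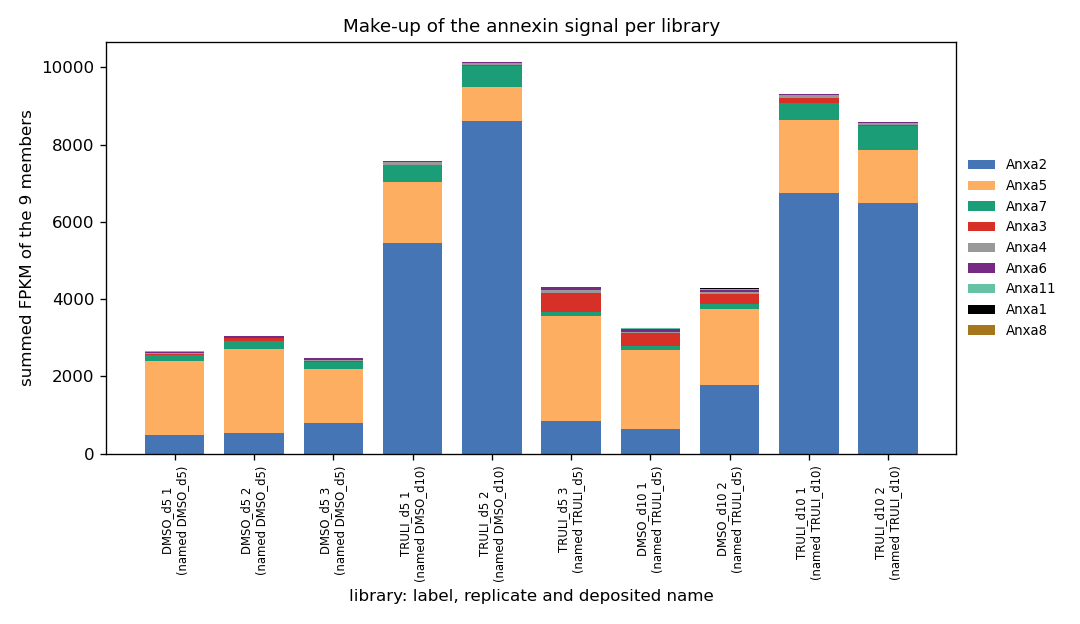
Stacked bars show the FPKM of each of the 9 annexin genes in each library (x axis, label and replicate with the deposited name below), and bar height is their summed FPKM. Anxa2 makes up 72.1% to 85% of the bars deposited as d10, and Anxa5 is the largest part of the other 6.

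Anxa3 (GRCm38, chr5:96793339-96845966, plus strand), a member described as a phospholipase A2 inhibitor, was the gene on which the family was picked. It stood at 31.7, 61 and 36.1 CPM in the DMSO_d5 libraries. In TRULI_d5 it was at 30.6 and 20.5 CPM in replicates 1 and 2 and at 472 CPM in replicate 3. In DMSO_d10 it was at 366 and 286 CPM, and in TRULI_d10 at 88.5 and 35.1 CPM. The 3 high libraries are those deposited as TRULI_d5, and none of the other 7 passed 88.5 CPM. By label the mean was 42.9 ± 15.8 CPM (SD, n = 3) in DMSO_d5 and 174 ± 258 CPM (SD, n = 3) in TRULI_d5, with overlapping ranges. By deposited name TRULI_d5 had 375 ± 93.1 CPM (SD, n = 3), above every library of the other 3 groups. The next groups in that order, TRULI_d10 with 61.8 ± 37.8 CPM (SD, n = 2) and DMSO_d5, overlapped in range.

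Anxa1 (chr19:20373428-20390944, minus strand), a glucocorticoid-induced protein that acts through formyl peptide receptors, was nearly absent outside 2 libraries. Its counts were 0, 0 and 1 in DMSO_d5, 2, 1 and 3 in TRULI_d5, 26 and 49 in DMSO_d10, and 1 and 0 in TRULI_d10. The 2 libraries labelled DMSO_d10, deposited as TRULI_d5, held 75 counts together, while the third library deposited as TRULI_d5 stayed at 3 counts. The scaled level was 85.2 times that of DMSO_d5 (exact 95% interval from counting error 14.8 to 3411). The formyl peptide receptor genes Fpr1, Fpr2 and Fpr3 summed to at most 1.47 CPM in any library.

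Anxa6 (chr11:54979108-55033445, minus strand), which carries a duplicated annexin core, was also highest in the libraries deposited as TRULI_d5. It was at 77.4, 82.9 and 96.2 CPM in DMSO_d5, at 65.9, 58.7 and 136 CPM in TRULI_d5, at 143 and 150 CPM in DMSO_d10, and at 89.7 and 69.4 CPM in TRULI_d10. By deposited name the 3 TRULI_d5 libraries, at 143 ± 6.97 CPM (SD, n = 3), lay above all others. By label the DMSO_d10 libraries lay above all others, and the next was TRULI_d5 replicate 3 at 136 CPM. The log2 fold changes of Anxa6 in the 4 comparisons and both groupings lay between -0.89 and 0.79, and none was called.

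Anxa2 (chr9:69453620-69491795, plus strand) was high in another set of libraries. Its levels were 554, 623 and 897 CPM in DMSO_d5, 7274, 13275 and 893 CPM in TRULI_d5, 663 and 2026 CPM in DMSO_d10, and 8736 and 9413 CPM in TRULI_d10. The 4 high libraries are those deposited as d10, with or without TRULI. By deposited name the mean was 10275 ± 4243 CPM (SD, n = 2) in DMSO_d10 and 9074 ± 479 CPM (SD, n = 2) in TRULI_d10, and these ranges overlapped. DMSO_d5 at 691 ± 181 CPM (SD, n = 3) and TRULI_d5 at 1194 ± 730 CPM (SD, n = 3) overlapped as well and lay below both.

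Anxa7 (chr14:20455260-20480133, minus strand) followed Anxa2 at a lower level. It was at 339, 519 and 417 CPM in DMSO_d5, at 1268, 1837 and 230 CPM in TRULI_d5, at 207 and 316 CPM in DMSO_d10, and at 1252 and 1920 CPM in TRULI_d10. By deposited name every d10 library was above every d5 library, and the TRULI_d5 libraries, at 251 ± 57.6 CPM (SD, n = 3), were below the DMSO_d5 libraries at 425 ± 90.2 CPM (SD, n = 3).

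Anxa4 (chr6:86736840-86793584, minus strand), a member of epithelial apical membranes, was high in the libraries deposited as d10 and in TRULI_d5 replicate 3. It was at 46.2, 25.8 and 36.4 CPM in DMSO_d5, at 119, 144 and 107 CPM in TRULI_d5, at 55.3 and 45.4 CPM in DMSO_d10, and at 130 and 106 CPM in TRULI_d10. By label its TRULI libraries of both times lay above every DMSO library, which held for no other member. By deposited name TRULI_d10 overlapped TRULI_d5, whose replicate 1 was at 107 CPM, and DMSO_d10 lay above it.

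Anxa5 and Anxa11 varied without a group standing apart. Anxa5 ran from 1060 to 2283 CPM, both ends within the libraries labelled TRULI_d5, and the group means by label were 1614 to 1792 CPM. Anxa11, which tethers RNA granules to lysosomes, ran from 5.14 to 45.4 CPM, and the gene overlaps Anxa11os on the other strand, whose reads cannot be told apart where strand was not kept. All neighbouring groups of these 2 genes overlapped in range under both groupings, while groups further apart in level did not all overlap. By deposited name Anxa5 was at 1688 to 2283 CPM in TRULI_d5 and at 1060 to 1499 CPM in DMSO_d10. Anxa11 was at 17.6 to 23.3 CPM in DMSO_d5 and at 8.94 to 16.1 CPM in TRULI_d10.

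**Figure D2:**
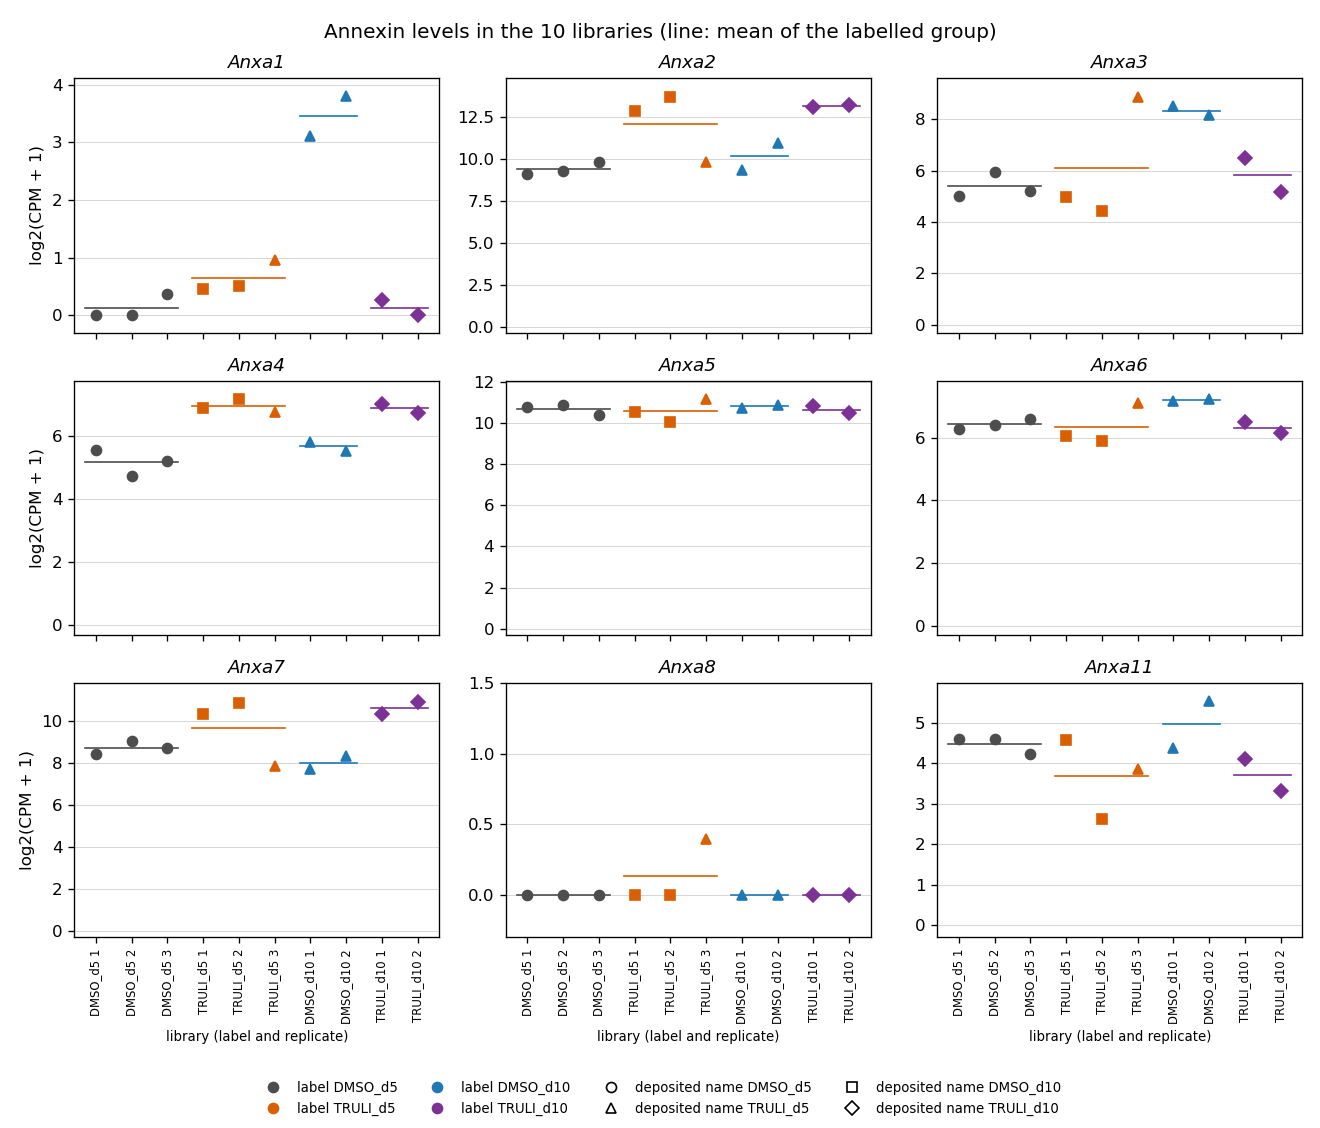
Each panel shows 1 annexin gene as log2(CPM + 1) in the 10 libraries, with colour for the label, shape for the deposited name and a line at the mean of the labelled group. Triangles are high for Anxa3 and Anxa6, with 2 of 3 high for Anxa1, and squares and diamonds are high for Anxa2 and Anxa7.

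The comparison of TRULI with DMSO at 5 days asks which genes respond while the inhibitor is present. A gene was called when its adjusted p, from the quasi-likelihood test of edgeR and adjusted by Benjamini-Hochberg over all genes tested, was under 0.05 and its log2 fold change was beyond 1. By label 0 of the 7 members tested were called, against 1 gene or 0.00939% of 10646 genes. At an unadjusted p under 0.05 edgeR had 2 members and 1477 genes. DESeq2 called 258 genes and 2 members, Anxa2 and Anxa4. The log2 fold changes were 3.38 ± 0.84 (SE) for Anxa2, 2.03 ± 1.03 (SE) for Anxa3, 1.77 ± 0.35 (SE) for Anxa4 and 1.39 ± 0.64 (SE) for Anxa7. Those of Anxa5, Anxa6 and Anxa11 lay between -0.60 and 0.03. Without TRULI_d5 replicate 3, the library deposited as TRULI_d5, Anxa2, Anxa4 and Anxa7 were called among 2121 genes. That fit has the same libraries as DMSO_d10 against DMSO_d5 by deposited name, given below, and is the same result. In it the log2 fold change was 1.89 for Anxa7 and -0.72 for Anxa3. With replicate 3 kept and replicates 1 and 2 left out, both signs were reversed, at -0.91 for Anxa7 and 3.43 for Anxa3. Without replicates 1 and 2, deposited as DMSO_d10, Anxa3 was called among 157 genes, with the remaining TRULI library assumed to vary like the controls.

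By deposited name 1 of 7 members tested was called at 5 days, beside 3.28% of 10952 genes. It was Anxa3, at a log2 fold change of 3.12 ± 0.31 (SE), the value that chose the family. Same-numbered libraries deviated together in this grouping, and with the replicate number as a block 696 genes were called in place of 359, with Anxa3 again the 1 member. Without replicate 1 of the libraries deposited as TRULI_d5, which leaves the libraries of DMSO_d10 against DMSO_d5 by label, Anxa1 was called as well. Outside the call, missing both the size and the adjusted p, were Anxa4 at 0.93 ± 0.35 (SE), Anxa2 at 0.78 ± 0.37 (SE) and Anxa6 at 0.73 ± 0.20 (SE). Anxa7 was at -0.77 ± 0.24 (SE). Of 4 Yap target genes tested, 3 were also called higher. They were Ccn2, a secreted matricellular protein, at 5.56 ± 0.31 (SE), Ajuba, a junctional scaffold, at 3.22 ± 0.31 (SE) and Amotl2, also a scaffold, at 1.82 ± 0.27 (SE). By label 0 of these 4 were called at 5 days. Ccn2 was at 2.39, 7.71 and 850 CPM in the libraries labelled TRULI_d5 and at 578 and 570 CPM in those labelled DMSO_d10. Its levels were 18.2, 10.4 and 13.8 CPM in DMSO_d5 and 18.1 and 4.33 CPM in TRULI_d10. The 8 hair cell markers summed to 201 to 882 CPM in the libraries deposited as TRULI_d5 and 166 to 269 CPM in DMSO_d5, and 7 mesenchymal markers to 48.9 to 138 CPM and 22.4 to 45.5 CPM. Of these lists Postn, a matrix gene, was called, at 5.31 ± 1.04 (SE). Of the 8 macrophage and leukocyte markers 1 was tested, Cd68, and it was called higher at 2.23 ± 0.54 (SE), with sums of 5.29 to 9.03 CPM against 1.17 to 1.87 CPM for the list. The part of the cell type markers in the annexin values was not tested.

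**Figure D3:**
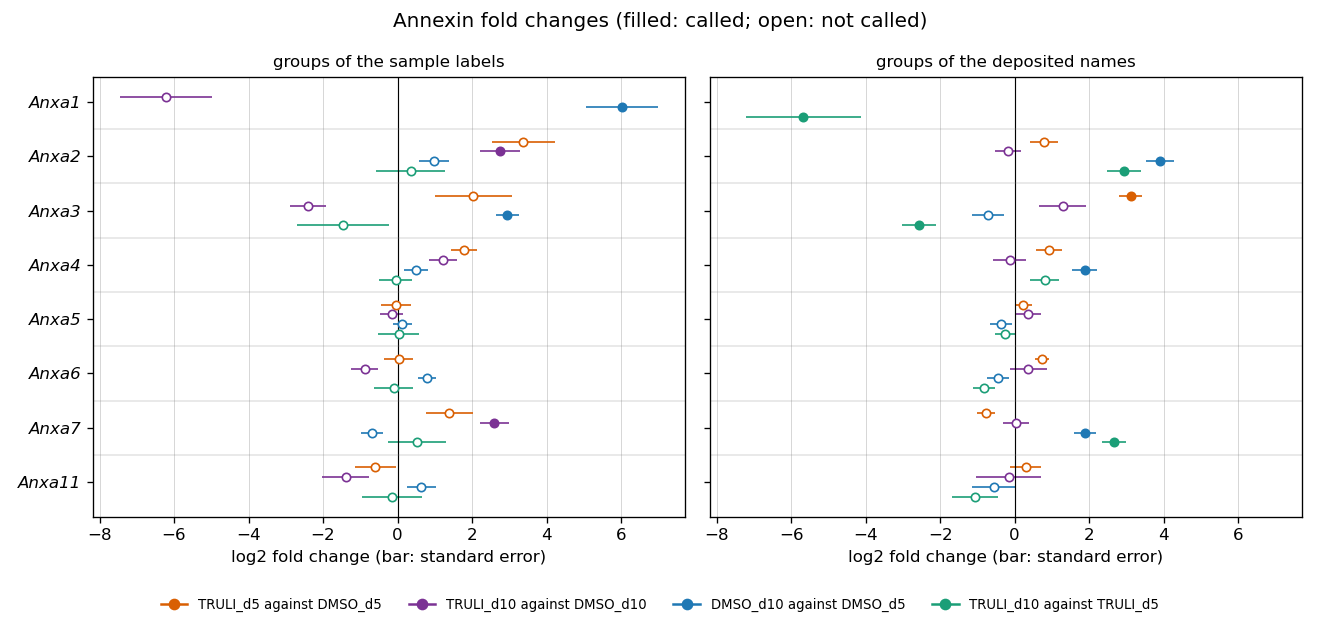
Points give the log2 fold change of each tested annexin (x axis, bars are standard errors) in 4 comparisons, by label on the left and by deposited name on the right, and filled points were called. The filled point of Anxa3 in the 5-day comparison is on the right only, and those of Anxa2 and Anxa7 for TRULI_d10 against DMSO_d10 are on the left only.

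After withdrawal the question is which differences persist 5 days after the inhibitor was removed. By deposited name, the grouping whose 4 libraries did not enter the choice of the family, 0 of 7 members tested were called, beside 0% of 10845 genes. At an unadjusted p under 0.05 edgeR had 0 members and 516 genes, and DESeq2 called 48 genes and 0 members. Anxa3 was at 88.5 and 35.1 CPM in TRULI_d10 and at 30.6 and 20.5 CPM in DMSO_d10. Its log2 fold change was 1.29 ± 0.63 (SE), with an adjusted p of 1.0 by edgeR. This size was 0.45 without TRULI_d10 replicate 1. The log2 fold changes of the other 6 lay between -0.17 and 0.37, also with adjusted p of 1.0 by edgeR. Anxa2 was at -0.17 ± 0.35 (SE) and Anxa7 at 0.04 ± 0.36 (SE). The hair cell markers summed to 989 and 148 CPM in TRULI_d10 replicates 1 and 2 and to 30.6 and 47.5 CPM in DMSO_d10. Of the 5 hair cell markers tested 0 were called. The mesenchymal markers summed to 149 and 42.5 CPM and to 57.8 and 44.1 CPM in the same order. The part of these markers in the annexin values was not tested. With 2 libraries a group, a missed threshold does not show equal levels.

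By label 2 of 8 members tested were called after withdrawal, beside 2.29% of 11562 genes. Both were higher, Anxa2 by a log2 fold change of 2.75 ± 0.53 (SE) and Anxa7 by 2.59 ± 0.39 (SE). Anxa3 at -2.40 ± 0.49 (SE) and Anxa1 at -6.22 ± 1.24 (SE) were lower in TRULI_d10 and missed the call. Of the Yap target genes, Ccn2 was called lower at -5.67 ± 0.67 (SE) and Ajuba at -3.8 ± 0.47 (SE). The DMSO_d10 libraries of this comparison were deposited as TRULI_d5, and no labelled DMSO_d10 library is left without them. They are among the libraries in which Anxa3 chose the family, so its value here is no separate result. Without replicate 1 or 2 of DMSO_d10 Anxa7 was no longer called, though its log2 fold change was 2.32 ± 0.50 (SE) or 2.94 ± 0.51 (SE), and Anxa2 was called at 2.15 or 3.78. Leaving out 1 library here leaves a group of 1, assumed to vary like the other group. Without TRULI_d10 replicate 1 or 2, Anxa3 and Anxa1 were again both lower in TRULI_d10. All 10 libraries in a single fit called neither Anxa2 nor Anxa7, at 2.75 ± 0.92 (SE) and 2.60 ± 0.74 (SE).

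Time in culture was compared after the levels had been seen, so these values are descriptions. The libraries deposited as TRULI_d5 are those in which Anxa3 chose the family. The Anxa3 value in TRULI_d10 against TRULI_d5 by deposited name is therefore no separate result. Between TRULI_d5 and TRULI_d10 the inhibitor was also removed, and its removal cannot be told apart from time in culture. By deposited name, DMSO_d10 against DMSO_d5 called 3 of 7 members tested, all higher, beside 19.5% of 10880 genes. They were Anxa2 at a log2 fold change of 3.91 ± 0.38 (SE), Anxa7 at 1.89 ± 0.30 (SE) and Anxa4 at 1.88 ± 0.34 (SE). Without DMSO_d5 replicate 2 none of the 3 genes, and 0 genes in all, were called, while the log2 fold changes were 3.83, 2.04 and 1.67. In the same comparison 5 of 7 hair cell markers tested were called lower, Calb2, Gfi1, Myo7a, Otof and Pou4f3, at -5.09 to -2.47, and all 8 summed to 30.6 to 47.5 CPM in DMSO_d10 against 166 to 269 CPM in DMSO_d5. Their part in the annexin values was not tested. TRULI_d10 against TRULI_d5 by deposited name called 4 of 8 members tested, beside 14.6% of 11697 genes. Anxa2 at 2.94 ± 0.46 (SE) and Anxa7 at 2.67 ± 0.32 (SE) were higher, and Anxa3 at -2.57 ± 0.45 (SE) and Anxa1 at -5.68 ± 1.54 (SE) were lower. Without TRULI_d5 replicate 2 by deposited name only Anxa7 of these was called. Without replicate 1, which leaves the libraries of TRULI_d10 against DMSO_d10 by label, only Anxa2 and Anxa7 were called. These 2 comparisons differ in which libraries they use, and whether their fold changes differ was not tested.

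By label the time comparisons gave other members. DMSO_d10 against DMSO_d5 called 2 of 8 members tested, beside 2.73% of 11299 genes: Anxa3 at 2.94 ± 0.31 (SE) and Anxa1 at 6.03 ± 0.97 (SE), both higher. These DMSO_d10 libraries were deposited as TRULI_d5 and are among those in which Anxa3 chose the family, so its call is no separate result. The Yap target genes Ccn2, Ajuba and Amotl2 were also called higher in this comparison, Ccn2 at 5.37 ± 0.30 (SE). Without DMSO_d10 replicate 2, Anxa1 was no longer called, at 5.56 ± 1.36 (SE), and without replicate 1 Anxa2 joined, at 1.57. Each of these leaves 1 DMSO_d10 library, assumed to vary like the DMSO_d5 libraries. TRULI_d10 against TRULI_d5 called 0 of 7 members and 0% of 11473 genes by edgeR, with 350 genes and 0 members at an unadjusted p under 0.05, and DESeq2 called 4 genes and 0 members. Without the 2 TRULI_d5 libraries deposited as DMSO_d10, Anxa2 was called at 3.37 ± 0.39 (SE) among 12 genes, but that leaves 1 TRULI_d5 library, assumed to vary like the 2 TRULI_d10 libraries.

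**Figure D4:**
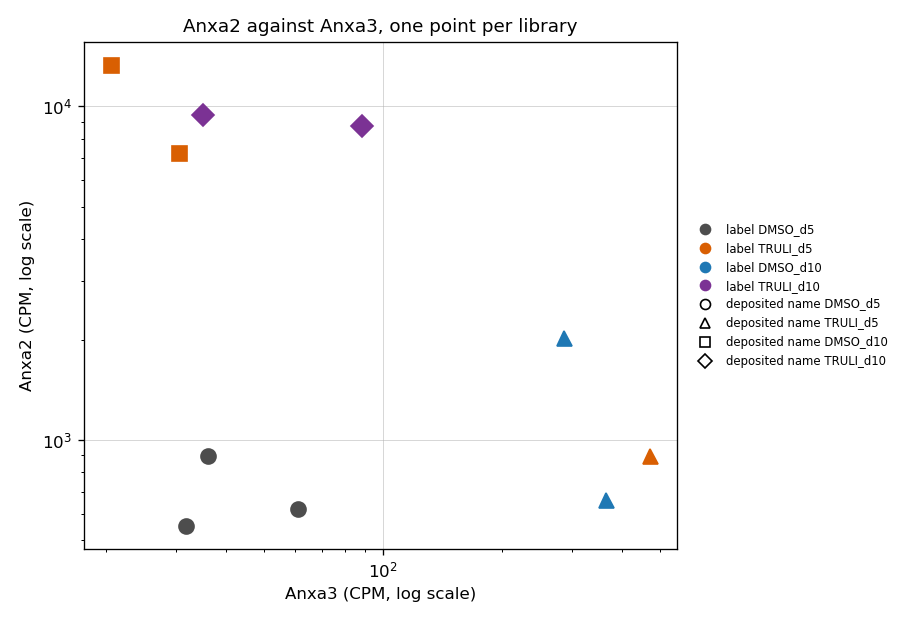
Each point is 1 library, with Anxa3 on the x axis and Anxa2 on the y axis, both in CPM on log scales, colour for the label and shape for the deposited name. The triangles (TRULI_d5 by deposited name) sit at 286 to 472 CPM of Anxa3, the squares and diamonds (d10) at 7274 to 13275 CPM of Anxa2, and no library is high for both.

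The S100 and EF-hand partners held genes that were high with Anxa2. S100a10, the partner of Anxa2 in their complex, was at 92.3, 219 and 124 CPM in DMSO_d5, at 271, 365 and 84.4 CPM in TRULI_d5, at 118 and 154 CPM in DMSO_d10, and at 306 and 371 CPM in TRULI_d10. S100a11, which binds the tails of several annexins, was at 56.9, 127 and 69.5 CPM, at 226, 471 and 55.9 CPM, at 72.9 and 81.8 CPM, and at 257 and 389 CPM in the same order. Both genes were highest in the 4 libraries deposited as d10, with no overlap. By deposited name S100a11 was called higher in DMSO_d10 than DMSO_d5, at a log2 fold change of 2.06 ± 0.43 (SE), and in TRULI_d10 than TRULI_d5, at 2.22 ± 0.32 (SE). S100a10 was called in the latter at 1.52 ± 0.32 (SE) and stood at 1.15 ± 0.38 (SE), not called, in the former. S100a1, another calcium-binding S100 protein, went the other way, at -1.55 ± 0.34 (SE) and -2.57 ± 0.30 (SE). Of the 6 partners tested, 3 were called higher and 1 lower for TRULI_d10 against TRULI_d5 by deposited name, with a median of 1.40 beside -0.03 over all genes tested. TRULI against DMSO called 0 of 6 at 5 days under either grouping and 0 of 6 after withdrawal by deposited name, and by label S100a11 was called higher and S100a1 lower after withdrawal.

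In the same 4 libraries Lfng, the gene behind the sorting reporter, was low, at 25.3 to 118 CPM against 344 to 657 CPM in the others. The mt-Rnr2 share was also low there, as given above, and Mbp, a myelin gene, was at 61.3 to 138 CPM against 26.1 to 43.7 CPM. The supporting cell markers summed to 4627 to 7665 CPM there and to 9396 to 15789 CPM in the other 6 libraries. The part of these differences in the Anxa2 and Anxa7 values was not tested, and by deposited name they cannot be told apart from time in culture.

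**Figure D5:**
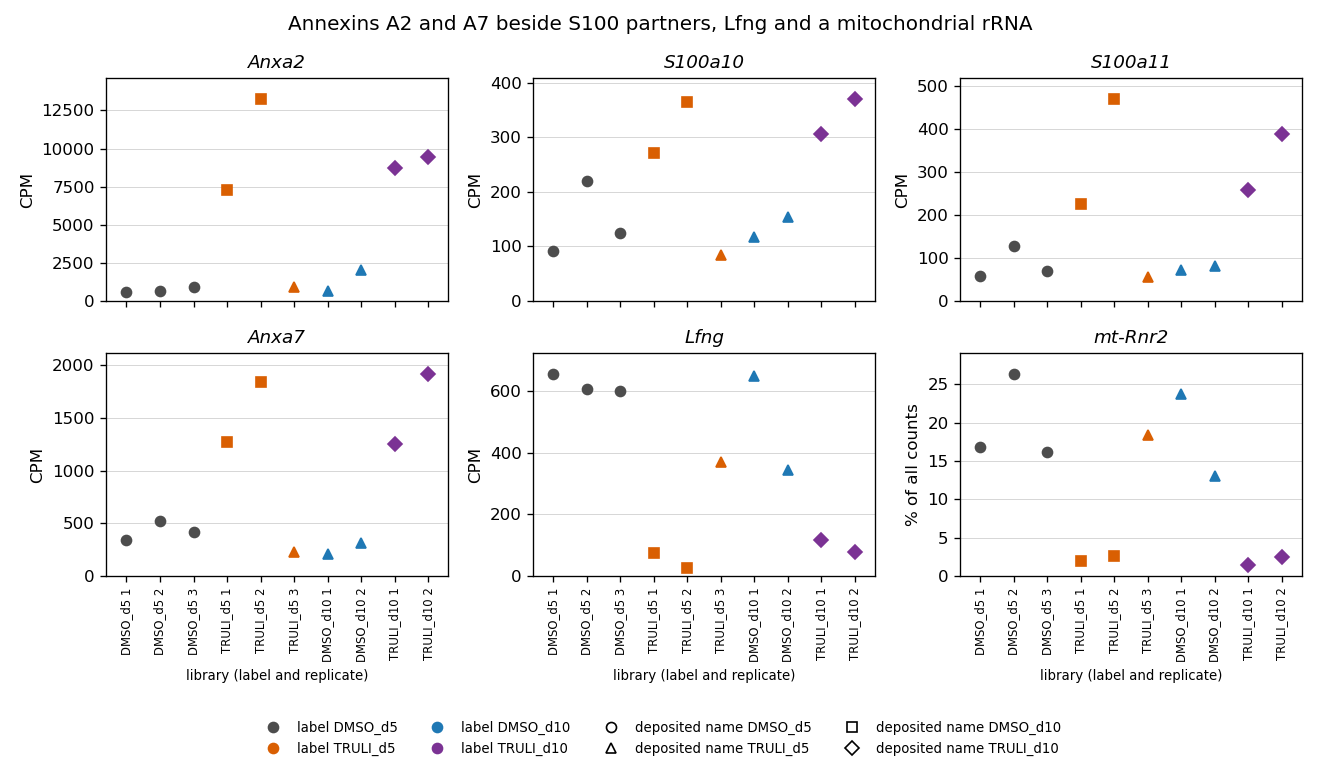
Panels show Anxa2, S100a10, S100a11, Anxa7 and Lfng in CPM and mt-Rnr2 as percent of all counts, per library, with colour for the label and shape for the deposited name. Squares and diamonds, the 4 libraries deposited as d10, are high in the annexin and S100 panels and low for Lfng and mt-Rnr2.

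Of the membrane repair list, 10 of 11 genes were tested and 1 was called in any comparison, Vps4a, an ATPase of the ESCRT machinery, higher in TRULI_d10 than TRULI_d5 by deposited name at 1.59 ± 0.36 (SE), and the list's median there was -0.22. In plasminogen activation, which Anxa2 and S100a10 are known to assist at the cell surface, Plat, tissue plasminogen activator, was called lower in that comparison. It was at 1023 to 1358 CPM in the 3 libraries deposited as TRULI_d5 and at 459 to 658 CPM in the other 7, which is the order of Anxa3 and Anxa6, not of Anxa2. Of the phospholipase A2 and scramblase list, Ano6, a calcium-activated scramblase, was called higher at 1.28 ± 0.34 (SE) in the same comparison. Among the other annexins, Anxa9 was at 2.51 to 10.3 CPM and called in no comparison, and Anxa10 was at 0 in every library.

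The genes with the pattern most like Anxa3, by Pearson's r of log2(CPM + 1) over the 10 libraries among 10209 genes with a mean of at least 5 CPM, were Tma16 (r = 0.952), Ccn2 (0.946), Hells (0.945), Anpep (0.944) and Kif20a (0.943). Anxa6 was in rank 9, at 0.939. Anxa5 had 0.745, Anxa2 had -0.429 and Anxa7 had -0.714. The genes most like Anxa2 were Brk1 (0.996), Zfp516 (0.994), Mpc2 (0.990), Myl12b (0.990) and Bud31 (0.990), with Anxa7 at 0.905 and Anxa4 at 0.802. The points of each r are the same 10 libraries, in which a few libraries set both patterns, and no p is given.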

How the data were processed

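RNA was measured in 10 libraries of sorted Lfng-GFP+ cells. Per the labels, poly(A) RNA was made into libraries with an Illumina kit, while the study's methods name a single-cell RNA library kit, with paired reads mapped by STAR to GRCm38. The authors made an expected count per gene from the mapped reads and deposited it with effective lengths, and the values are not normalized. The counting program was not given in the sources used here. Expected counts were rounded, and 48349 of 48709 genes matched GENCODE M21. Genes passing filterByExpr were tested with edgeR 4.0.16 (TMM, quasi-likelihood, 2 groups a fit, protein-coding genes), and DESeq2 1.42.0 in R 4.3.3 was an alternative. CPM used TMM factors over all 10 libraries, and FPKM used protein-coding totals and effective length. The scripts were tested on simulated data.

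The members and lists were chosen with earlier results of these data known. All members are named, and of each partner list at most 3 called genes by size of fold change. The Yap genes follow this limit per comparison, and Fpr and marker genes were named after their values were seen. By deposited name, same-numbered 5-day libraries correlated in their deviations from group means at 0.362, 0.184 and 0.295. By label the values were -0.133, 0.051 and -0.174. No 2 libraries agreed within sampling noise. The labels do not say whether libraries came from separate animals, so p-values measure the spread between these libraries. The alternatives were other tools, scalings, filters, gene types, a joint fit, a replicate block, the other grouping and each library left out.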

Additional observations from a re-analysis of the deposited data

How the results depend on the processing

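Counts of called members depended on the grouping and on single libraries. Some fits with a library left out have the same libraries as a comparison of the other grouping, so they are not separate results. At 5 days by label the count was 0. It was 2 with DESeq2, 1 by deposited name, 1 without the libraries whose name gives another condition, and 0 to 3 when 1 library was left out. After withdrawal by label the count was 2. It was 5 with DESeq2, 4 with no filter on low counts, 1 with every gene type, 0 in the joint fit of 10 libraries, 0 by deposited name, 5 with the replicate block and 1 to 6 when 1 library was left out. After withdrawal by deposited name it was 0 under every alternative run, block and left-out libraries included. At 5 days by deposited name the count of 1 became 2 with no filter, where Anxa1 entered, and was 1 to 2 when a library was left out. For time in culture in DMSO by label the count of 2 was 0 in the joint fit and 1 to 3 with a library left out, and by deposited name the count of 3 was 0 to 4. For time after TRULI by deposited name the count of 4 was 1 to 3 with a library left out and 3 with the block, and by label the count of 0 was 1 without the conflicting libraries. The block called 6 genes in place of 0 in the latter.

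Genes called in all changed more. At 5 days by label there was 1, with 258 by DESeq2 and 0 to 2121 when a library was left out. After withdrawal by label the 265 became 1435 by DESeq2, 1294 with no filter, 0 in the joint fit, 28 to 3028 with a library left out and 1837 with the block, where same-numbered pairs share only a number. After withdrawal by deposited name the 0 became 48 by DESeq2, 198 with no filter and up to 26 with a library left out. At 5 days by deposited name the 359 became 567, 586 with no filter, 123 in the joint fit and 64 to 396 with a library left out. For time in DMSO by deposited name the 2121 became 1117 with the block and 0 to 3947 with a library left out. The 309 by label became 481 with DESeq2, 758 with no filter, 4 in the joint fit, 544 with the block and 154 to 333 with a library left out. For time after TRULI by deposited name the 1706 became 2620 with DESeq2 and 43 to 2489 with a library left out. The cause of these changes was not tested.

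Between the groupings 3 fold changes called in 1 of them changed sign. After withdrawal Anxa2 was at 2.75, called, by label and at -0.17 by deposited name. For DMSO_d10 against DMSO_d5, Anxa3 was at 2.94, called, by label and at -0.72 by deposited name, and Anxa7 was at -0.68 by label and at 1.89, called, by deposited name. Within a grouping no member's call with all libraries changed sign in an alternative. CPM without TMM moved group means by more than 1 SD for Anxa2 in TRULI_d10 (8026), and by label for Anxa5 (1994) and Anxa6 (163) in DMSO_d10. By deposited name this held for Anxa1 (0.336), Anxa4 (111) and Anxa6 (53.1) in DMSO_d10 and for Anxa6 in TRULI_d5 (160). Depth limits Anxa1 and Anxa8 most, since 1 count separates 0 from detected there. Single libraries were not tested as outliers in groups of 2 or 3.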
